A study of Mus musculus with 12 samples.

Results

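miR-183-5p-EVs were compared with ctrl-EVs in RAW264.7 cells, a mouse macrophage line, by RNA-Seq of polyadenylated RNA. The comparison rests on 6 samples, 3 libraries of miR-183-5p-EVs and 3 of ctrl-EVs out of 12 in the series, and they were chosen by their titles. Each miR-183-5p-EV library was set against the ctrl-EV library that carries the same number, which gives 3 pairs. All cells received extracellular vesicles (EVs) for 48 h at 3 µg of vesicle protein per ml. The EVs came from MS-1, a mouse endothelial line, and had been electroporated with a miRNA mimic, either of miR-183-5p or, in the controls, of a worm miRNA (cel-miR-67). Both groups therefore share the vesicles and the electroporation, and no untreated cells enter the comparison. The remaining 6 libraries, 3 of miR-142-5p-EVs and 3 of miR-222-3p-EVs, are used to estimate the spread and as a second reference. The cells are of a single line, and what a shared number stands for is not stated, so p-values measure only the spread between these libraries, which may be technical.

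A miRNA guides an Argonaute protein to mRNAs that pair with its seed, nucleotides 2 to 8 counted from the 5′ end. Pairing in the 3′ UTR recruits TNRC6 proteins and the PAN2-PAN3 and CCR4-NOT deadenylases, which shorten the poly(A) tail and lower the amount of the mRNA. miR-183 is transcribed together with miR-96 and miR-182 and is best known from sensory cells. In macrophages, cells that engulf particles and shape inflammation, the study examined the miRNA as cargo of endothelial vesicles.

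The mature sequence is shown because all site counts in the text rest on it, with the seed in capitals (RefSeq, GRCm38.p6, chr6:30169711-30169732, minus strand).
mmu-miR-183-5p: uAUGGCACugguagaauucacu

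The libraries held 17181572 to 22974853 estimated counts each, and 13923 genes were tested. The 12 macrophage markers had a summed level of 2217 to 3333 TPM (a length-corrected level that sums to the same total in every library) in ctrl-EVs and 2238 to 3358 TPM in miR-183-5p-EVs, with each marker above 1 TPM in every library. The 15 endothelial markers summed to 19.3 to 34.6 TPM and 18.8 to 32.7 TPM, and Cldn5, Emcn and Sox17 were at 0 in all 6 libraries. Libraries of the same number deviated together, with correlations of 0.440, 0.707 and 0.526 across genes between the 2 groups in numbers 1, 2 and 3, and the libraries of number 2 stood apart from the rest on the first principal component (49.7% of the variance of the 500 most variable genes). Because the comparison is defined as paired by number, the number was a block in DESeq2, the main test.

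In miR-183-5p-EVs 45 genes rose (0.323% of the genes tested) and 13 fell (0.0934%). The risen genes included Lss of sterol synthesis, Cybb of the phagocyte oxidase, Dnmt3a of DNA methylation, and Pan3 and Cnot6l of mRNA deadenylation. Among the fallen genes were the stress factor Ddit3 and the co-chaperone Dnajc12. The rises were small, from 0.31 to 1.05 on the log2 scale (median 0.47), and the falls ran from −0.34 to −1.39 (median −0.58). Each of the 45 was higher in all 3 numbers and each of the 13 was lower in all 3. Over all genes 13.5% were higher in all 3 numbers (1886 genes) and 15.3% lower (2127 genes). The range of the 3 miR-183-5p-EV libraries lay wholly above that of the 3 ctrl-EV libraries for 7 of the 45 risen genes, and wholly below for 3 of the 13 fallen genes, against 1.72% and 1.47% of all genes. For the other called genes the groups overlapped and the difference was seen only between libraries of the same number.

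These calls depended on the model. On a single set of simulated counts DESeq2 with the block called more unchanged genes than its threshold allows. That set was drawn with the spread of the main fit. DESeq2 adjusted p-values of the 58 genes lay between 0.0111 and 0.0497. Without the block DESeq2 called 0 genes, with 138 at an unadjusted p under 0.05. edgeR with the block called 0 as well, with 1492 at an unadjusted p under 0.05 and a lowest adjusted p of 0.340. With the block 1407 genes had an unadjusted p under 0.05 in DESeq2, 5.4% of all genes upwards and 4.7% downwards. Leaving out 1 library changed the count to 209 without ctrl-EVs 1, 148 without ctrl-EVs 3, 13 without miR-183-5p-EVs 3 and 6 without miR-183-5p-EVs 2. It was 14 when number 2 was left out of all groups and 25 without number 3.

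**Figure D1:**
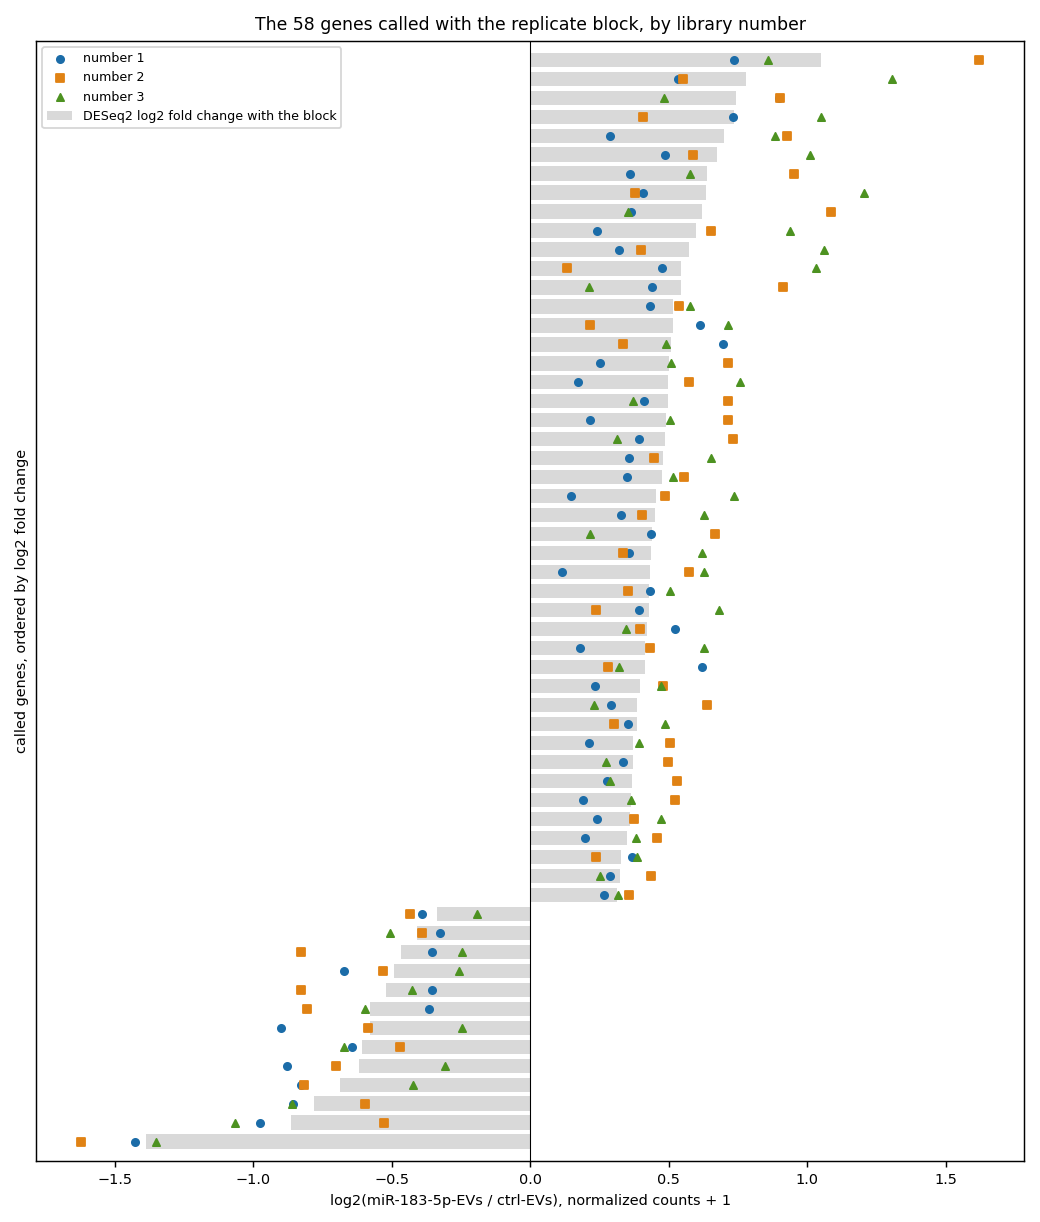
The log2 ratio of miR-183-5p-EVs to ctrl-EVs (x axis, normalized counts + 1) for the 58 called genes (y axis, ordered by log2 fold change), with a symbol for each library number and a grey bar for the DESeq2 log2 fold change with the block. All 3 symbols of a gene lie on the same side of 0, while their distance from 0 differs between numbers, and for some genes number 2 lies farthest out, as in Gm14295 at the top.

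Of the 37 lists, cholesterol and fatty acid synthesis had the largest share of genes higher in all 3 numbers. This is a pathway that macrophages adjust through the transcription factors SREBP1 and SREBP2. Of 37 tested genes 15 (40.5%) were higher in all 3 numbers and 1 was lower, against 13.5% and 15.3% of all genes. The median log2 fold change was 0.18 against −0.01 over all genes. In the list 2 genes passed the test, both upwards, while 0.323% of all genes were called higher. Normalized counts of Lss, the synthase that closes the sterol ring to lanosterol, were 1982, 3247 and 1406 in ctrl-EVs and 2684, 5151 and 1632 in miR-183-5p-EVs. Every treated library was above the control of its number, and number 2 held the highest level in both groups (0.44 ± 0.11, DESeq2 adjusted p 0.0312).

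Other members with differences of similar size did not pass the test. Insig1, the protein that retains SREBPs in the endoplasmic reticulum, was 0.54 ± 0.18 (DESeq2 adjusted p 0.121), and Stard4, a cholesterol carrier, 0.46 ± 0.15 (0.138). In number 3 Insig1 stood at 1887 in the control and 1918 in the treated library, and Stard4 at 1004 and 1005, so their difference came from numbers 1 and 2. The same held for the list: 33 and 34 of its 37 genes were higher in numbers 1 and 2, and 17 in number 3. Its median log2 ratio was 0.24, 0.34 and −0.02 in numbers 1, 2 and 3, and the median log2 fold change fell to 0.08 without number 2. The list was also higher in number 2 than in the other numbers in cells given the other 2 mimics (median difference 0.37 on the log2 scale). The part of that difference between numbers in the result was not tested.

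**Figure D2:**
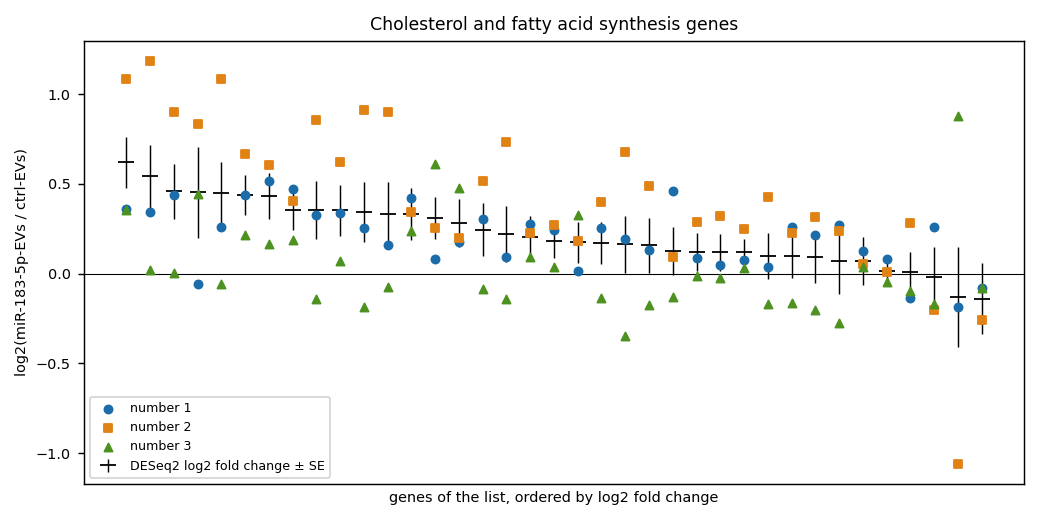
Log2 ratio of miR-183-5p-EVs to ctrl-EVs (y axis) for the 37 tested genes of cholesterol and fatty acid synthesis (x axis, ordered by log2 fold change), one symbol per library number, with the DESeq2 log2 fold change ± SE in black. Number 2 is highest in 13 of the 18 genes farthest to the left, and the triangles of number 3 scatter around 0.

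Promoters were searched for TCACNCCAC, a form of the sterol response element to which SREBPs bind, on both strands from 250 bases before to 50 after the start (RefSeq, GRCm38.p6). It was found in 1 of the 27 list genes with a promoter in the table (3.70%), Hmgcs1, and in 1.38% of the 10353 tested genes that had a promoter there. It was found in 0 of the 10 list genes that were higher in all 3 numbers and had a promoter there. The match in Hmgcs1, the synthase that makes HMG-CoA, is shown with the motif in capitals (chr13:119690204-119690233, plus strand, 137 bases before the start). Hmgcs1 was 0.45 ± 0.17 (DESeq2 adjusted p 0.233).
Hmgcs1 promoter: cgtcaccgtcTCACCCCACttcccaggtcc

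Cybb encodes the catalytic subunit of the phagocyte NADPH oxidase, which makes superoxide. Its counts were 397, 311 and 298 in ctrl-EVs and 740, 583 and 417 in miR-183-5p-EVs, and the groups did not overlap (0.74 ± 0.20, DESeq2 adjusted p 0.0492). The other 7 subunits and regulators of the oxidase did not pass the test. Cyba, the partner that forms the membrane heterodimer with Cybb, was lower in all 3 numbers (−0.34 ± 0.12, adjusted p 0.166). Of the cytosolic subunits Ncf1 was at 0.20 and Ncf4 at −0.14.

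Among regulators of chromatin Dnmt3a and Morc3 rose and the linker histone H1f0 fell. Dnmt3a, which sets new DNA methylation, had 4194, 3851 and 3119 normalized counts in ctrl-EVs and 6417, 4470 and 5120 in miR-183-5p-EVs. The groups did not overlap, and the log2 fold change was 0.51 ± 0.12 (DESeq2 adjusted p 0.0137). Of 16 tested genes of DNA methylation 5 (31.3%) were higher in all 3 numbers and 0 lower, against 13.5% and 15.3% of all genes. The list had a median log2 fold change of 0.10. Besides Dnmt3a the 5 higher genes included Dnmt3b, the other de novo methyltransferase, at 0.69 ± 0.23 (adjusted p 0.143). They also included Tet2, which oxidizes methylcytosine, at 0.38 ± 0.13 (adjusted p 0.160). Tet1, the member with the largest difference in size (−1.46 ± 1.60), had at most 33.9 normalized counts in a library. Morc3, a nuclear ATPase that silences chromatin, rose from 1479, 2075 and 1108 to 1855, 2745 and 1714 (0.45 ± 0.12, adjusted p 0.0442). In its list, heterochromatin and H3K9 methylation, 6 of 20 genes were higher in all 3 numbers and 0 lower. Atrx, a chromatin remodeller, was at 0.48 but not higher in all 3 (adjusted p 0.140). The 6 included Kdm3a and Kdm3b, which remove the H3K9 mark, at 0.34 and 0.36, and Ehmt1, which sets it, at 0.23, none of which passed the test. H1f0 had 12264, 7361 and 14139 against 9579, 4149 and 11910 (−0.47 ± 0.12, adjusted p 0.0304). Of 26 genes of other histone lysine methylation 0 were called, with 5 higher and 1 lower in all 3 numbers and medians of −0.05, 0.21 and 0.17 in numbers 1, 2 and 3. With a correction for gene length the median log2 fold change of this list went from 0.12 to 0.05 and that of DNA methylation from 0.10 to 0.06.

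Among 33 tested genes that act in miRNA silencing, Pan3 and Cnot6l rose, while 0.323% of all genes were called higher. Pan3, the adaptor of the PAN2 deadenylase, had 1068, 1718 and 1224 in ctrl-EVs and 1729, 2166.1 and 1719 in miR-183-5p-EVs. The lowest treated library was just above the highest control (0.51 ± 0.14, DESeq2 adjusted p 0.0460). Cnot6l, a catalytic deadenylase of CCR4-NOT, had 2021, 1679 and 1380 against 2379, 2340 and 1916 (0.40 ± 0.10, adjusted p 0.0330). Of 33 tested genes of the list 10 (30.3%) were higher in all 3 numbers and 1 was lower, against 13.5% and 15.3% of all genes. Ago3, an Argonaute protein, was 0.68 ± 0.32 (adjusted p 0.371), and Tnrc6b, a partner of Argonaute, 0.52 ± 0.28 (adjusted p 0.450). Tarbp2, a partner of Dicer, was the gene that was lower (−0.31 ± 0.15, adjusted p 0.378). The median of the list was 0.00, 0.14 and 0.25 in numbers 1, 2 and 3, and its median log2 fold change went from 0.12 to 0.07 with a correction for gene length.

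Atm, the kinase that signals DNA breaks, had 1921, 2227 and 1224 in ctrl-EVs and 2165, 3312 and 2069 in miR-183-5p-EVs, the smallest step being in number 1 (0.50 ± 0.11, DESeq2 adjusted p 0.0137). Of the 18 tested DNA damage genes 3 (16.7%) were higher and 3 (16.7%) lower in all 3 numbers, against 13.5% and 15.3% of all genes. While 0.323% of all genes were called higher, 1 of 329 tested Zfp zinc finger genes passed the test, Zfp280c. It had 963, 805 and 930 against 1139, 1044 and 1290, without overlap (0.36 ± 0.10, adjusted p 0.0456), while 33 genes of the list were higher and 35 lower in all 3 numbers. The lowest adjusted p (0.0111) was shared by 7 genes, of which 2 were risen regulators of transcription. Ccnt1, the cyclin of the elongation kinase P-TEFb, had 2314, 5097 and 1740 against 3126, 6516 and 2469 (0.43 ± 0.10). Fubp1, which binds a DNA element upstream of Myc, had 2190, 3975 and 1374 against 2806, 5018 and 2115 (0.43 ± 0.10).

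The largest rises included scaffold, membrane and signalling proteins. Amotl1, a scaffold of cell junctions, had 547, 284 and 449 against 911, 377 and 931 (0.74 ± 0.16, DESeq2 adjusted p 0.0111). Its treated library of number 2 lay below the controls of numbers 1 and 3. Nbeal1, a large BEACH-domain protein, had 1969, 2547 and 1186 against 2762, 3825 and 2389 (0.67 ± 0.16). Fam126b, of a complex that makes phosphatidylinositol 4-phosphate at the plasma membrane, had 1060, 2026 and 628 against 1295, 3858 and 1160 (0.70 ± 0.17). Both groups of Fam126b spanned more than the difference between them. Gpr155, a lysosomal membrane protein, rose by 0.64, Ino80d, a subunit of the INO80 chromatin remodeller, by 0.60, Rasgrp3, an activator of Ras, by 0.54, and Fam199x by 0.52. Their DESeq2 adjusted p-values were 0.0456, 0.0220, 0.0460 and 0.0208.

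Several of the largest rises are uncertain because their reads can match other genes. The most abundant transcript of Gm14295 (1.05 ± 0.29) shared stretches of at least 95% identity and at least a read's length with transcripts of 20 other genes. The processed pseudogene Gm48493 (0.64 ± 0.17) did so with 95 and Olfr1388, annotated as an olfactory receptor (0.57 ± 0.15), with 17. Salmon divides such reads by an estimate. Lmln, a peptidase (0.78 ± 0.20), and Scaf1, a partner of RNA polymerase II (0.54 ± 0.15), had 0 such matches, and their differences are taken up with their transcripts.

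Of the 13 fallen genes, Dnajc12, a co-chaperone of the DnaJ family, was among the 3 whose groups did not overlap. It had 226, 215 and 248 in ctrl-EVs and 124, 142.02 and 136 in miR-183-5p-EVs (−0.78 ± 0.17, DESeq2 adjusted p 0.0111). The 38 tested DnaJ genes had 11 (28.9%) lower and 2 higher in all 3 numbers. Their median log2 ratio was −0.08, −0.06 and −0.08 in numbers 1, 2 and 3. Ddit3, the CHOP transcription factor of the unfolded protein response, had 2863, 2472 and 3933 against 2183, 1828 and 3446 (−0.34 ± 0.09, adjusted p 0.0358). The highest control and the highest treated library were both of number 3. Of the 36 tested genes of that response 4 (11.1%) were higher and 4 (11.1%) lower in all 3 numbers, against 13.5% and 15.3% of all genes. The medians of that list were 0.13, 0.14 and −0.11 in numbers 1, 2 and 3. Trib3, a target of CHOP, was lower in all 3 numbers, mostly through number 2 (−0.53 ± 0.31, adjusted p 0.495), and Slc7a11, the cystine transporter, higher in all 3 (0.39 ± 0.13, adjusted p 0.121). The exons of Ddit3 overlap those of another annotated gene of the same symbol on the same strand. The call concerns 1 of these entries, and the level of the other is not reported here.

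Marcksl1, an actin-binding substrate of protein kinase C, had 871, 331 and 1417 against 474, 203 and 1145 (−0.62 ± 0.14, DESeq2 adjusted p 0.0111). Crem, a transcription factor of the cAMP response, had 415, 264 and 818 against 233, 149 and 609 (−0.69 ± 0.16, adjusted p 0.0181). For both genes the controls alone spread more than 3-fold, and the fall was seen within each number. St3gal3, a sialyltransferase, fell by 0.58, and Vps45, which acts in fusion of endosomal vesicles, by 0.52. Antxr2, the anthrax toxin receptor, fell by 0.49 and Tmem116 by 0.61. Their adjusted p-values were 0.0137, 0.0216, 0.0345 and 0.0471. The largest fall was in a gene named Chtf8 (−1.39 ± 0.30, adjusted p 0.0111), with 291, 126 and 511 against 108, 40.3 and 200. This symbol belongs to 2 annotated genes that share most of their sequence. The other, with 2294 to 3121 normalized counts in ctrl-EVs, was at −0.07 ± 0.10 (adjusted p 0.823), so the split between them is uncertain.

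Some lists were lower without a called member. Of 78 mitochondrial ribosomal protein genes 28 (35.9%) were lower in all 3 numbers and 0 higher, against 15.3% and 13.5% of all genes. The medians of this list were −0.09, −0.05 and −0.25 in numbers 1, 2 and 3, and 36 of the 78 genes were higher in number 2. The largest difference was that of Mrps10, which had 238, 249 and 257 in ctrl-EVs and 182, 204 and 171 in miR-183-5p-EVs, without overlap (−0.42 ± 0.16, DESeq2 adjusted p 0.214). The lists of cytosolic ribosomal proteins (81 genes, 15 lower, 0 higher) and of nuclear oxidative phosphorylation genes (76 genes, 17 lower, 1 higher) behaved otherwise. Their medians were −0.08, 0.12 and −0.36 and −0.03, 0.10 and −0.30 in the 3 numbers, so number 2 went the other way. Without number 3 their median log2 fold changes were 0.01 and 0.05, and that of mitochondrial ribosomal proteins was −0.06. All 3 lists hold short transcripts, with a median length of 1027 bases for mitochondrial ribosomal proteins, 674 for cytosolic ones and 702 for oxidative phosphorylation, against 2256 for all genes. With a correction for gene length their median log2 fold changes went from −0.13 to −0.07, from −0.11 to −0.07 and from −0.08 to −0.02.

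Of all 37 lists, the median was above that of all genes in every number for 5 and below it in every number for 4. The 5 were DNA methylation, heterochromatin, miRNA processing and silencing, integrins and the reported targets of miR-183-5p. The 4 were mitochondrial ribosomal proteins, the 13 protein-coding genes of the mitochondrial genome, DnaJ co-chaperones and chemokines. In number 1 the medians of miRNA processing and silencing (0.0024) and of DNA methylation (0.0095) were close to that of all genes (0.0004). How many of 37 lists would lie on 1 side in all 3 numbers without any effect was not tested. A list could also move strongly in 1 number: the glycolysis and hypoxia genes had medians of 0.43, 0.10 and −0.21, and interferon-stimulated genes 0.27, −0.15 and −0.02.

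**Figure D3:**
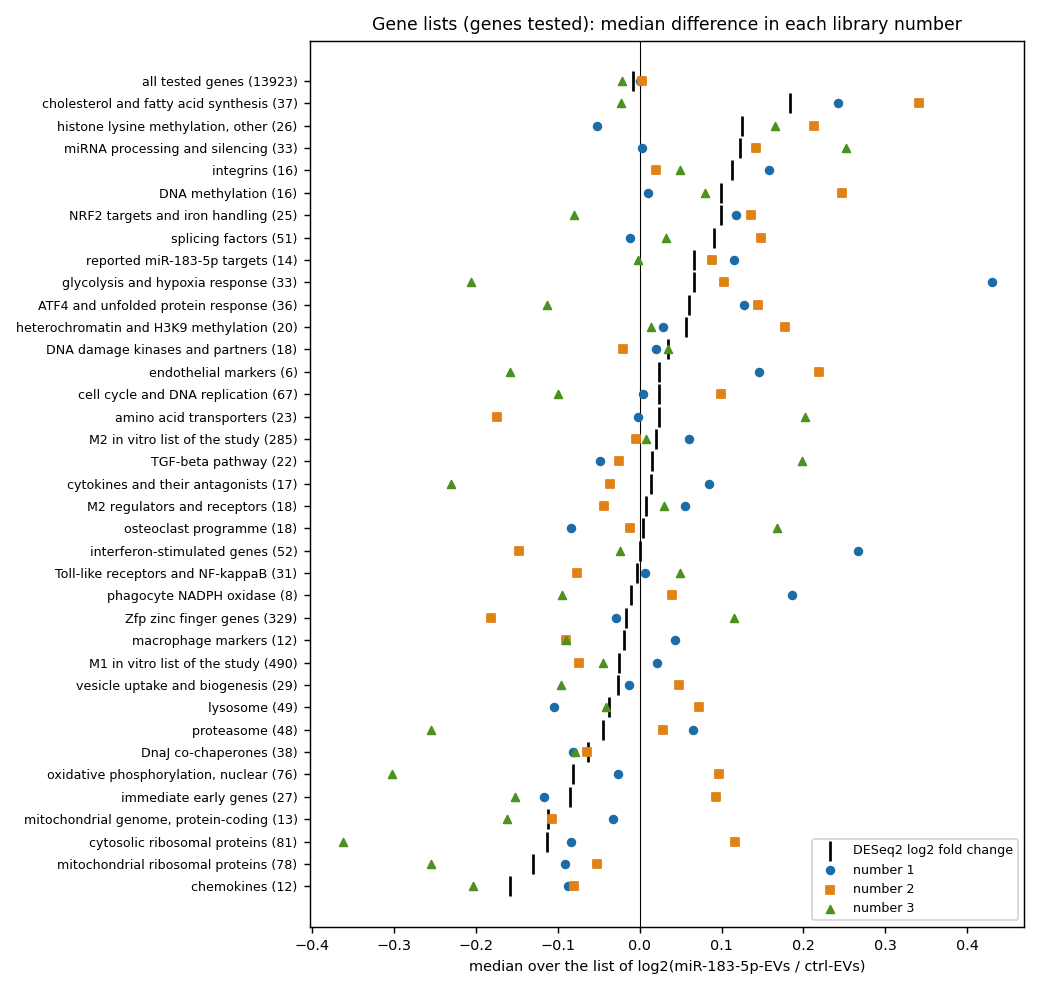
Median log2 ratio of miR-183-5p-EVs to ctrl-EVs over the members of gene lists (x axis) in each library number (symbols), with the median DESeq2 log2 fold change as a black tick; list names carry the number of genes tested. The symbols of most lists fall on both sides of 0, while those of DnaJ co-chaperones lie together below it.

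The study's question was macrophage polarization. In the study's M1 list of human blood cells 60 of 490 tested genes (12.2%) were higher and 86 (17.6%) lower in all 3 numbers. In its M2 list 47 of 285 (16.5%) were higher and 28 (9.82%) lower, against 13.5% and 15.3% of all genes. Medians of the M1 and M2 lists were −0.03 and 0.02. Over all genes 0.323% were called higher and 0.0934% lower. In the M1 list 6 genes were called higher and 1 lower, St3gal3. The risen ones included Cybb and Morc3, Pag1, Malt1, a protease of NF-κB signalling, and Fyco1, an adaptor of vesicle transport (0.48 and 0.42 for the last 2, DESeq2 adjusted p 0.0305 and 0.0385). In the M2 list Amotl1 and Dnmt3a were called higher and Crem lower. Of the 4 marker genes, Tgfb1 was at 0.01 ± 0.13 (DESeq2 adjusted p 0.978). Nos2, the M1 enzyme that makes nitric oxide, had 146, 40.5 and 26.8 against 133, 44.1 and 21.8, and Il1b 44.7, 33.8 and 36.5 against 39.8, 12.5 and 44.1. DESeq2 gave no adjusted p for these low counts, and the unadjusted p was 0.768 and 0.375. Arg1, the M2 arginase, had at most 7.09 normalized counts in any of the 6 libraries and was below the filter.

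The 7 letters that pair with the seed, GTGCCAT, were searched for in the 3′ UTR of each gene's most abundant protein-coding transcript (GENCODE vM21). This site was present in 1118 of 12569 tested genes with such a UTR (8.89%). Genes with it had a median log2 fold change of 0.04 and genes without it −0.02. Among called genes it was present in 10 of 43 risen genes (23.3%) and in 1 of 11 fallen genes (9.09%). The UTRs of risen genes were also longer, with a median of 2203 bases against 914 for all genes and 814 for fallen genes. Of the 14 tested genes reported elsewhere as targets of miR-183-5p, 9 had the site and 0 passed the test. In all 3 numbers 4 of the 14 were higher and 1 lower, against 13.5% and 15.3% of all genes. Foxo1 was the gene that was lower (−0.18 ± 0.13, DESeq2 adjusted p 0.605).

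Sites are shown for the only fallen gene that has one, for 2 risen genes and for Foxo1 and Ppp2cb among the reported targets, the last 2 chosen after their values were seen. Capitals mark the 7 bases that pair with the seed or, where an A follows, all 8. All are from GRCm38 and are written on the strand of the gene: Clptm1 at chr7:19632063-19632092 (minus), Morc3 at chr16:93875231-93875260 (plus), Pag1 at chr3:9689392-9689421 (minus), Foxo1 at chr3:52347204-52347233 (plus) and Ppp2cb at chr8:33619335-33619364 (plus).
Clptm1 3′ UTR: tagccactctgGTGCCATttgctttcacgg
Morc3 3′ UTR: aatcgagggctGTGCCATAgtgtatgtaaa
Pag1 3′ UTR: ctgtcacctctGTGCCATAtctacagcatg
Foxo1 3′ UTR: agataaggactGTGCCATtgggaatcatta
Ppp2cb 3′ UTR: tggaccaaaacGTGCCATActaatgatgag
Clptm1, a membrane protein, fell from 1027, 841 and 1072 to 819, 641 and 754, without overlap (−0.41 ± 0.11, DESeq2 adjusted p 0.0456). The site lies in the coding transcript Clptm1-201, whereas 80.3% of the change was in the retained-intron transcript Clptm1-209, with 19.4, 11.6 and 19.9 TPM in ctrl-EVs and 14.04, 6.86 and 9.97 TPM in miR-183-5p-EVs. Without the length offset Clptm1 was at −0.26 (adjusted p 0.177). Pag1, an adaptor that recruits the kinase Csk, rose (0.49 ± 0.12, adjusted p 0.0264) with a site of the same length as that of Ppp2cb, a phosphatase 2A subunit at −0.12 ± 0.10 (adjusted p 0.632). A match is a description of the letters and not a sign of binding.

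The transcripts behind these genes were examined next. Salmon lists each annotated transcript, and 5 of the 58 called genes had a single transcript with at least 10 counts over the 6 libraries, so their change was that of 1 transcript: Gm48493, Olfr1388 and Fam199x among the risen and Marcksl1 and H1f0 among the fallen. Over all 45 risen genes, those with 1 transcript included, the transcript with the largest step in TPM carried a median of 46.0% of the rise, and over all 13 fallen genes 77.7% of the fall. That transcript was protein-coding in 27 of the 45 risen genes and was a retained-intron transcript in 9, a processed transcript without an open reading frame in 7, and of another class in 2. Among the 13 fallen genes it was protein-coding in 9 and a retained-intron transcript in 1.

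In Lss the coding Lss-201 carried 34.9% of the rise, with 19.9, 27.0 and 13.1 TPM in ctrl-EVs and 23.4, 33.3 and 17.5 TPM in miR-183-5p-EVs. The retained-intron transcript Lss-207 went from 4.25, 11.4 and 2.16 TPM to 5.97, 20.5 and 4.19 TPM, and Lss-206 from 0.88, 3.76 and 0.51 TPM to 2.24, 8.95 and 1.06 TPM. The share of Lss counts given to these 2 transcripts thus rose from 17.8% to 22.996% and from 4.13% to 7.37%. In Cybb the coding Cybb-201 carried 91.8% of the rise in TPM and held 99.1% of the counts in ctrl-EVs and 99.2% in miR-183-5p-EVs. Its share of the gene's TPM was 67.97%, 95.59% and 100% in ctrl-EVs and 95.95%, 92.34% and 71.42% in miR-183-5p-EVs. In number 3 Cybb-201 went from 5.22 to 5.91 TPM and the gene from 5.22 to 8.28 TPM, so most of that step lay outside Cybb-201. In Dnmt3a the step was split: the 8737-base Dnmt3a-218 went from 20.6, 14.9 and 15.9 TPM to 22.9, 14.3 and 25.4 TPM, lower in number 2, and the 9685-base Dnmt3a-201 from 10.2, 8.52 and 7.97 TPM to 11.4, 12.9 and 12.6 TPM. The short Dnmt3a-208, a 467-base model, gave the largest part of the rise through number 1, where it went from 6.60 to 30.3 TPM.

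For some genes the count itself changed little and the assignment of reads to transcripts differed. A gene's level here is its count divided by the mean length of its transcripts in that library, so a shift to shorter transcripts raises the level at equal counts. Camta1, a transcription activator that binds calmodulin, had 209, 255 and 205 length-corrected counts in ctrl-EVs and 106, 177 and 97.3 in miR-183-5p-EVs, without overlap (−0.86 ± 0.21, DESeq2 adjusted p 0.0216). With no length offset the difference was −0.00031 on the log2 scale. The fall came from Camta1-213, a 243-base model with 13.3, 8.96 and 12.3 TPM in ctrl-EVs and 3.64, 5.00 and 3.07 TPM in miR-183-5p-EVs, and the mean transcript length went from 558 to 988 bases. In Scaf1 the 231-base Scaf1-202 gave 87.4% of the rise, and the log2 fold change turned from 0.54 to −0.03 without the offset. In Lmln it went from 0.78 to 0.11, in Gm14295 from 1.05 to 0.14 and in Amotl1 from 0.74 to 0.30. In all, 7 of the 58 genes kept less than 1 part in 2 of their log2 fold change without the offset, and 1 of these turned its sign. With no offset DESeq2 called 32 genes, of which 17 were among the 58. Genes no longer called included Zfp280c, which went from 0.36 to 0.18 (DESeq2 adjusted p 0.397), and Morc3, from 0.45 to 0.25 (0.208). Others were Atm, from 0.50 to 0.37 (0.185), Pan3 (0.0855), Cnot6l (0.0855) and Lss (0.0794).

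**Figure D4:**
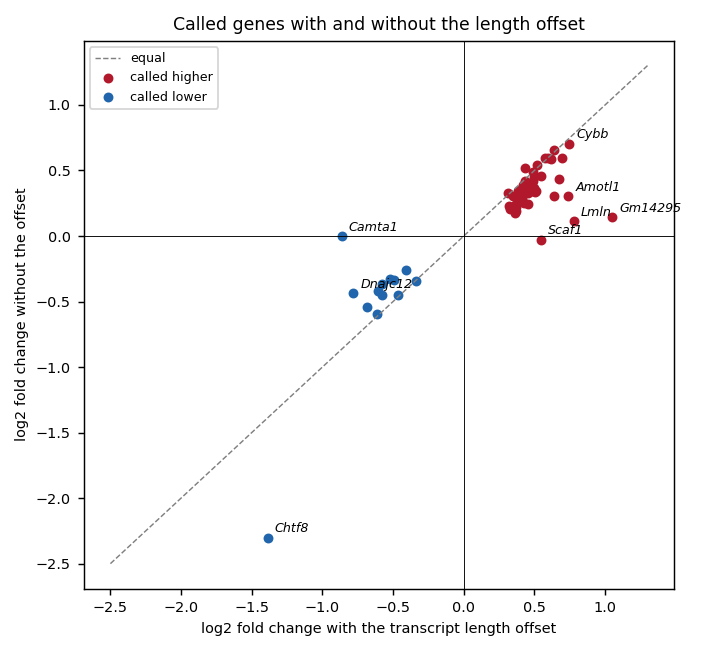
Log2 fold change of the 58 called genes with the transcript length offset (x axis) and without it (y axis), risen genes in red and fallen genes in blue, with a dashed line where both are equal. Camta1, Scaf1, Lmln and Gm14295 lie near 0 on the y axis, and 50 of the 58 genes lie closer to 0 without the offset.

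The shift in transcript length was shared by the risen genes. The mean transcript length was shorter in miR-183-5p-EVs in 44 of 45 risen genes (median change −8.21%) and longer in 9 of 13 fallen genes (median 9.23%), while over all genes 72.8% were shorter (median −0.89%). The length is part of the value tested, so these counts describe the calls and do not support them. Risen genes were long, with 39 of 45 above the median transcript length of all genes, and 11 of 13 fallen genes were below it. Risen genes were also high in number 2, by a median of 0.68 on the log2 scale in the libraries of the other 2 mimics, with 35 of 45 above 0 against 50.1% of all genes, and fallen genes were low there (median −0.83, 12 of 13 below 0). The part of length and of the difference between numbers in these calls was not tested. With a correction for gene length added to the block DESeq2 called 54 genes, of which 37 were among the 58. Genes no longer called included Ddit3 (adjusted p 0.225), Lss (0.169), Pag1 (0.168), Cybb (0.125), Tmem116 (0.118), Gpr155 (0.0804), Clptm1 (0.0633), Fam199x (0.0633), Crem (0.0623) and Dnmt3a (0.0617).

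Transcripts annotated with a retained intron, which are mostly not translated, were raised as a class. They took 3.91%, 5.76% and 3.79% of the counts in ctrl-EVs 1, 2 and 3 and 4.27%, 6.40% and 4.22% in miR-183-5p-EVs. Each treated library was above the control of its number, by 0.37, 0.64 and 0.43 percentage points, and the groups overlapped, since the control of number 2 was above the treated libraries of numbers 1 and 3. The share in the other 2 mimic groups, compared with the same 3 controls, stood at 4.28%, 6.19% and 4.22% in cells given miR-142-5p-EVs. Cells given miR-222-3p-EVs had 4.08%, 6.62% and 4.23%. No test of these shares was run. Of the 5509 retained-intron transcripts with at least 10 counts in each library, 25.2% were higher and 6.95% lower in all 3 numbers, against 8.10% and 23.3% of 16722 coding transcripts. Their median log2 ratio was 0.13, 0.18 and 0.14 in the 3 numbers, and that of coding transcripts −0.05, −0.07 and −0.14.

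Tested singly, 221 of 47153 transcripts were called by DESeq2 with the block (0.469%), 85 higher and 136 lower, and in 82 of them the count of at least 1 of the 6 libraries rounded to 0. edgeR called 0, with 3287 at an unadjusted p under 0.05. On a single set of simulated counts DESeq2 called more unchanged transcripts than its threshold allows, also under the stricter filter described next. Calls of single transcripts and their adjusted p-values are therefore uncertain. Among the 25837 transcripts with at least 10 counts in every library, a filter added after the data were seen, 46 were called (0.178%), 30 higher and 16 lower. Of these 13 of the 30 risen and 0 of the 16 fallen were retained-intron transcripts, which made up 21.3% of those tested. Of the retained-intron transcripts Lss-206 had the lowest adjusted p (1.23 ± 0.21 on the log2 scale, DESeq2 adjusted p 2.52e-05). Pkm-205, of the last enzyme of glycolysis, had 2433, 6752 and 1044 against 3716, 9147 and 1604. Far1-202, a coding transcript of a fatty acyl-CoA reductase with the lowest adjusted p of the 46 (7.74e-10), went from 109, 302 and 63.3 to 300, 690 and 163, and the coding Eif5a-201, of a translation factor, from 136, 70.3 and 137 to 49.5, 20.03 and 16.3. These transcripts were chosen after their values were seen, and the genes Pkm, Far1 and Eif5a were not called.

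**Figure D5:**
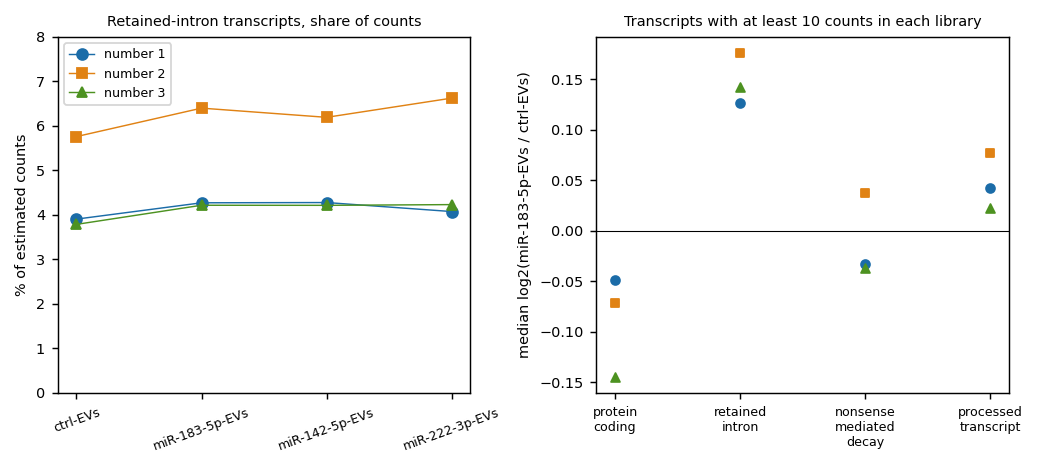
Left, share of estimated counts given to retained-intron transcripts (y axis, %) in each of the 12 libraries by group, with lines joining libraries of the same number. Right, median log2 ratio of miR-183-5p-EVs to ctrl-EVs (y axis) by transcript class for each number. The ctrl-EV library is the lowest of its number on the left, and on the right the symbols of retained-intron transcripts lie above 0 and those of coding transcripts below it in all 3 numbers.

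To see what was particular to miR-183-5p, its 3 libraries were also compared with the 6 of the other 2 mimics, with no ctrl-EV library in the contrast. DESeq2 called 2 genes of 13923 (0.0144%), Camta1 and Gm10273, with 298 at an unadjusted p under 0.05, and edgeR called 0. Of the 58 genes called against ctrl-EVs, Camta1 alone differed from the other mimics (−0.92 ± 0.18, DESeq2 adjusted p 0.00267). Differences of the others from the other 2 mimics did not pass the test. For Cybb the difference was −0.01 ± 0.18, for Dnmt3a 0.18 ± 0.10 and for Dnajc12 −0.35 ± 0.15. Against the shared controls Cybb was 0.74 in miR-183-5p-EVs, 0.72 in miR-142-5p-EVs and 0.79 in miR-222-3p-EVs, and Atm was 0.50, 0.65 and 0.66.

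Gm10273 is a copy of Timm23, which encodes a channel of the mitochondrial import machinery. It lies on chr10:59395632-59396757 and Timm23 on chr14:32180162-32201898 (GRCm38). In ctrl-EVs it stood at 6.97, 10.5 and 6.59 normalized counts, and in miR-183-5p-EVs at 109, 21.9 and 106, without overlap. They were 0.89, 5.08 and 0.98 in miR-142-5p-EVs and 1.82, 7.27 and 31.8 in miR-222-3p-EVs. Against ctrl-EVs Gm10273 was at 3.27 ± 0.78 (DESeq2 unadjusted p 2.72e-05). DESeq2 gave no adjusted p in that comparison, so the gene could not be called there. The difference from the other mimics was 3.999 ± 0.70 on the log2 scale (DESeq2 adjusted p 0.000153). Timm23 had 1898, 1304 and 1979 against 1707, 1433 and 1576 (−0.12 ± 0.10, adjusted p 0.674). Over 1121 aligned bases their main transcripts differ at 1 position, G145A, counted from the first base of Timm23-201. That base lies ahead of the ATG in the stretch shown. Both versions are shown with that base in capitals, because reads that do not cover it cannot be told apart and the value of Gm10273 is uncertain.
Timm23-201: accgccgtttgctgcGacctcatggaaggt
Gm10273-201: accgccgtttgctgcAacctcatggaaggt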

How the data were processed

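RNA-Seq data of 12 libraries of RAW264.7 cells were analysed. The authors quantified reads against Ensembl mouse transcripts with Salmon v0.8.2. The deposited files hold, per transcript, an estimated count of reads, not normalized, and a TPM value. Whether strand was used in quantification is not given in the sources used here.

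Of 118783 transcripts 116710 (98.3%) matched GENCODE vM21 (GRCm38) by identifier, giving 35944 genes, while unmatched ones took 0.570% to 0.642% of counts. Counts were added up within genes, then rounded. The 13923 genes reaching 10 counts in 3 or more libraries entered DESeq2 1.42.0 (R 4.3.3), with all 4 groups, library number as a block and mean transcript length as an offset. Genes are called at an adjusted p under 0.05 (two-sided Wald test, Benjamini-Hochberg). Against ctrl-EVs DESeq2 gave 3779 of the 13923 genes no adjusted p, so these could not be called, though percentages count them as tested. Normalized counts are divided by size factor and length offset, and per-number ratios are log2(normalized count + 1). Numbers come from the sample titles, and all 18 pairs of libraries sharing a number correlated (0.409 to 0.798 in their deviations from group means). Alternatives were edgeR 4.0.16, no block, other normalizations and filters, and left-out libraries.

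The text names the 14 called genes that rose most and the 10 that fell most (mean normalized count 50 or more, same direction in all 3 numbers), called members of lists other than the polarization lists, the 5 called genes with the lowest p, the genes the study measured, Gm10273 and Timm23, and up to 4 members per list by size of difference. Hmgcs1, Ehmt1, Tarbp2, Foxo1, Ppp2cb, Clptm1, Pag1, Malt1 and Fyco1 were chosen after their values were seen. Some genes that this rule names are not reported here. Members and lists were chosen with earlier results of these data known. With 17181572 to 22974853 counts per library, 3 counts correspond to 0.131 to 0.175 CPM.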

Additional observations from a re-analysis of the deposited data

Results flagged for a closer look

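Gm10273 differed between miR-183-5p-EVs and the other 2 mimics by 3.999 ± 0.70 on the log2 scale (DESeq2 adjusted p 0.000153), tested as a contrast of the groups themselves. All 3 miR-183-5p-EV libraries were above all ctrl-EV and miR-142-5p-EV libraries, and miR-222-3p-EVs 3, at 31.8 normalized counts, was above miR-183-5p-EVs 2, at 21.9. Gm10273 was called without number 2 (5.01 ± 0.81) and without number 3 (4.40 ± 0.89) but not without number 1, and edgeR did not call it.

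Camta1 differed from the other 2 mimics by −0.92 ± 0.18 (DESeq2 adjusted p 0.00267), by the same contrast. It was not called when any of the 3 numbers was left out, and edgeR did not call it. Its normalized counts were 106, 177 and 97.3 in miR-183-5p-EVs, 191, 383 and 159 in miR-142-5p-EVs and 266, 276 and 169 in miR-222-3p-EVs, so the treated library of number 2 lay above 2 libraries of the other mimics.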

How the results depend on the processing

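Against ctrl-EVs, where 58 genes were called, DESeq2 without the replicate block called 0 and edgeR called 0 with and without the block. The count was 32 with no length offset, 3 with only the 6 libraries compared (Chtf8, Gm10273 and Nbeal1) and 6 to 209 when a library or number was left out, as the report gives. It stayed within 1.5 times of 58 with TMM factors, the filters and the length correction. Scaf1 reversed to a log2 fold change of −0.028 with no length offset. Against the other 2 mimics, where 2 were called, the count was 0 without the replicate block and 0 in edgeR, and 1 to 3 with a number left out. For transcripts, where 221 were called, it was 34 without the replicate block, 0 in edgeR, 46 under the stricter filter added after the data were seen and 174 to 322 with a number left out. The counts of genes higher or lower in all 3 numbers stayed within 1.5 times. The depth limits low genes such as Arg1, Il1b and Nos2.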
